A study of Danio rerio with 4 samples.

Results

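Claudins are the membrane proteins that seal, or open selective pores in, the space between neighbouring epithelial cells. They were followed here through an early step of egg growth in the zebrafish ovary. Members were all genes of the deposited mRNA table whose name begins with cldn in any case, with the transcripts of a name summed, which gave 36 of 29458 gene names. Of these, 14 reached 1 FPKM or more in at least 1 of the libraries. The other 22 stayed below that level in both.

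Each claudin crosses the membrane 4 times, and its extracellular loops meet those of a claudin on the next cell to form the strands of a tight junction. Some claudins make the strand tighter and others leave a channel for ions or water, so the mix a cell makes sets what passes between cells. In the fish ovary each oocyte is wrapped in a layer of granulosa cells and an outer theca with blood vessels. Later in growth the yolk precursor crosses that layer through gaps between granulosa cells. Teleosts carry more claudin genes than mammals, and several of the fish genes are named by letters (cldna to cldnk) rather than numbers.

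Follicles came from ovaries of 3-month-old adult AB fish, with no treatment or mutation named, and were sorted by size and look into the primary growth and the pre-vitellogenic stage. Each stage gave 1 mRNA library, so no difference below has a replicate check and none carries a p-value. The follicles were sequenced whole. A higher level can therefore mean more cells of a type or more RNA per cell, and these cannot be told apart in bulk RNA. The read depth of the libraries is unknown. Levels are FPKM, fragments scaled by transcript length and by library size, so they can be compared between genes. They are relative to the other RNA of the same library, and RNA per follicle was not measured. Differences subtract the log2(FPKM + 1) of primary growth from that of pre-vitellogenic follicles, which makes low genes look more alike than they are. A gene counts as higher or lower when that difference reaches 2-fold. Of 14480 gene names at 1 FPKM or more in either library, 29.1% were higher and 6.53% lower by this rule, and names at 1 FPKM or more in both libraries were shifted by a median of 0.42.

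Claudins differed between the stages in both directions. A pair of claudins, cldnd and cldng, made up almost all claudin RNA and were lower in pre-vitellogenic follicles. The scarcer genes cldn7a, cldn11a, cldn11b and both genes for claudin domain proteins were higher. All 5 were under 5 FPKM in primary growth, where 5 of 10 compared claudins were higher, against 42.4% of 5900 compared genes at that level, so this direction is not particular to claudins. Of the 14 claudins compared, 5 were higher (against 29.1% of all compared genes), 3 were lower (against 6.53%) and 6 were neither. Of the 14, 4 entered the comparison through 1 library alone, the one in which they were high. Among the 10 claudins at 1 FPKM or more in both libraries, 4 were higher, against 26.3% of 12022 such genes, and 2 were lower, against 5.63%. These 2 were cldnd and cldng, both at 1000 FPKM or more in primary growth, where 82.8% of 122 compared names were lower. After all differences were centred on the median shift, 5 of the 14 were higher (against 15.2% of all compared genes) and 6 lower (against 13.2%). After scaling to the 75th percentile 6 were lower, against 12.4%. With the trend of difference on transcript length removed, by subtracting the median of each of 10 length classes, 5 were higher (against 12.1%) and 4 lower (against 9.17%). With a pseudocount of 5 FPKM 3 were higher, against 13.5%.

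**Figure D1:**
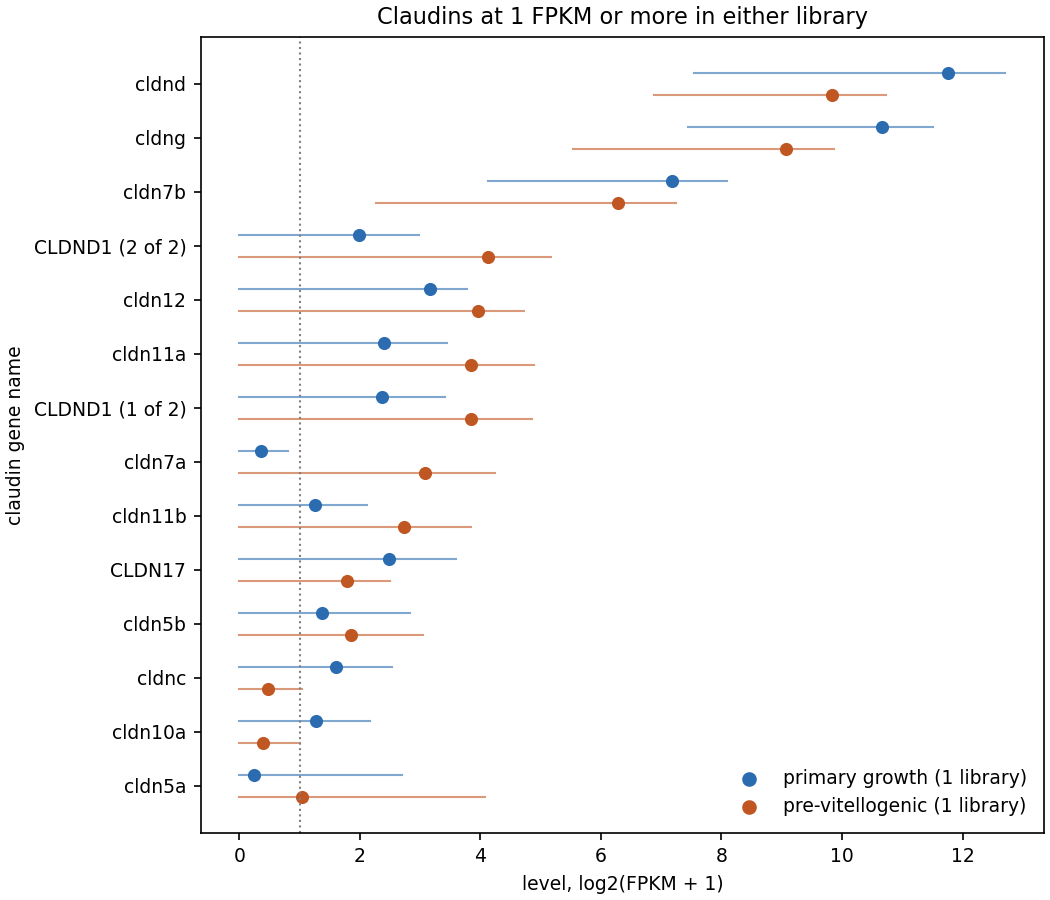
Level of each of the 14 claudins at 1 FPKM or more in either library, as log2(FPKM + 1), with 1 library per stage. Points are the summed level of the gene, lines run from the lower to the upper bound the authors deposited for its most abundant transcript, and the dotted line marks 1 FPKM; cldnd, cldng and cldn7b stand apart from the rest, and no gene's lines for the 2 stages are separate.

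Claudin RNA as a whole took a smaller share of FPKM in the later stage. The 36 names summed to 5243 FPKM in primary growth and 1602 FPKM in pre-vitellogenic follicles, a difference of -1.71. That was 0.718% and 0.263% of all FPKM in the respective library. The 2 most abundant genes held 96.6% of claudin FPKM in the earlier stage and 90.1% in the later one. With the 3 most abundant left out, the remaining claudins went the other way, from 33.9 to 81.0 FPKM, a difference of 1.23. This last split was chosen after the values were seen. It stayed above 0 under every scaling tried but came under the 2-fold mark under some of them, with 0.82 after centring, 0.79 after scaling to the 75th percentile and 0.78 with the length trend removed. Without the claudin domain genes the remaining claudins went from 26.7 to 51.2 FPKM, a difference of 0.91.

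The leading gene was cldnd (chromosome 21, 25157483 to 25158259, plus strand, build Zv9), a fish claudin on a transcript of 777 bases. It stood at 3445 FPKM in primary growth and 909 FPKM in pre-vitellogenic follicles, a 3.79-fold lower level (difference -1.92). By level it ranked 13 among all gene names in the first library and 58 in the second. The authors' bounds for it were wide, from 184.9 to 6706 FPKM in primary growth and from 116.9 to 1701 FPKM in pre-vitellogenic follicles, and they overlapped.

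The second was cldng (chromosome 1, 33277725 to 33279850, minus strand), which RefSeq also lists as cldn5l. Its summed level was 1619 FPKM in primary growth and 534.6 FPKM in pre-vitellogenic follicles, 3.03-fold lower (difference -1.60). Of its 2 transcripts the longer carried most of that, at 1542 and 490.5 FPKM, and the shorter was at 77.4 and 44.1 FPKM, so both were lower in the later stage. It ranked 66 and then 121 among all names.

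The level of both genes places them where most abundant transcripts of primary growth follicles were lower. Of 122 names at 1000 FPKM or more in that library, 101 were called lower, or 82.8%. Against that share the direction of cldnd and cldng is not particular to them. The median difference of the 122 names was -1.31, beside -1.92 for cldnd and -1.60 for cldng.

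Next came cldn7b (chromosome 10, 22344978 to 22350629, minus strand), 1 of the 2 zebrafish counterparts of mammalian claudin-7. It was at 144.5 FPKM in primary growth and 77.3 FPKM in pre-vitellogenic follicles, a difference of -0.89 that missed the 2-fold mark as deposited. Set against the median shift of all genes it was lower, at -1.31, and the value was -1.54 with the length trend removed. These 3 were the only claudin transcripts at 1 FPKM or more whose deposited lower bound was above 0 in both libraries. For 14 of 17 such claudin transcripts the lower bound was 0 in both, as it was for 85% of all transcripts at that level. No claudin transcript had separate bounds in the 2 stages, and among all transcripts 0.0278% did.

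Its duplicate cldn7a (chromosome 7, 23783303 to 23793944, plus strand) showed the largest difference of any claudin compared, in the opposite direction. It was at 0.278 FPKM in primary growth, where its deposited bounds ran from 0 to 0.761 FPKM, and at 7.48 FPKM in pre-vitellogenic follicles (difference 2.73, or 26.9-fold in FPKM). It passed the 1 FPKM level through the later library alone. With a pseudocount of 5 FPKM the difference was 1.24 and with 0.1 FPKM it was 4.33, so its size rests on how low values are treated. The 2 claudin-7 duplicates thus stood 519.6-fold apart in primary growth and 10.3-fold apart in the later stage, with cldn7b the higher in both.

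The claudin-11 duplicates were both higher in pre-vitellogenic follicles. In the mouse, claudin-11 forms the tight junctions between Sertoli cells of the testis and those of myelin. The gene cldn11a (chromosome 2, 26145596 to 26149343, minus strand) was at 4.31 and 13.4 FPKM (difference 1.44). The gene cldn11b (chromosome 24, 27229143 to 27237920, plus strand) was at 1.40 and 5.69 FPKM (difference 1.48), nearly all of it on the shorter of its 2 transcripts. With a pseudocount of 5 FPKM both came under the 2-fold mark, at 0.99 and 0.74.

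Higher too were the 2 genes named CLDND1, for claudin domain containing protein, a relative of the claudins proper. CLDND1 (2 of 2) on chromosome 1 (52975995 to 52981658, plus strand) was at 2.97 and 16.4 FPKM, a difference of 2.13. CLDND1 (1 of 2) on chromosome 7 (77046569 to 77048733, plus strand) was at 4.15 and 13.3 FPKM, a difference of 1.47. Both stayed at or above the 2-fold mark under each of the 11 alternatives run on them. CLDND1 (1 of 2) sat at the mark, at 1, with a pseudocount of 5 FPKM. With 1 transcript each, neither value could be changed by the filters, the choice of transcript or the added member genes. Without these 2 genes the median difference of the compared claudins turned from 0.64 to -0.10. The median over all compared genes was 0.50.

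**Figure D2:**
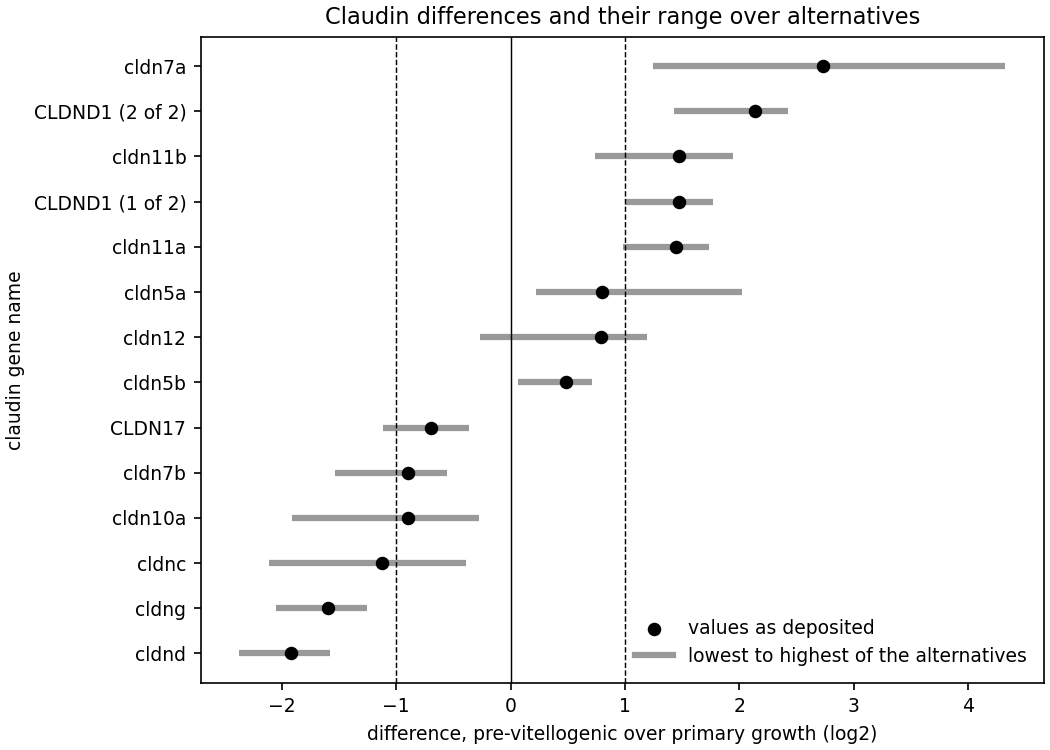
Log2 difference of each compared claudin, pre-vitellogenic over primary growth, with the value as deposited (black points) and the lowest to highest value over the alternative scalings, pseudocounts, filters and transcript choices (grey bars). Dashed lines mark the 2-fold rule. The genes cldnd, cldng, cldn7a and both CLDND1 genes stay at or past it throughout, cldn5b stays between the lines throughout, and the bar of cldn12 crosses 0.

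Claudins known from vessel walls were scarce and did not pass the 2-fold rule as deposited. Claudin-5 seals the endothelium of brain vessels in the mouse, and zebrafish carry the duplicates cldn5a and cldn5b. The gene cldn5a (chromosome 8, 4906305 to 4907861, plus strand) was at 0.185 and 1.06 FPKM, a difference of 0.80. That is 5.73-fold in FPKM, yet under the 2-fold mark with 1 FPKM added. With a pseudocount of 0.1 FPKM the difference of cldn5a was 2.03. It lies within the span of dhx37 on the opposite strand, which stood at 29.2 and 39.0 FPKM. No source used here says whether reads were counted by strand, so reads of the 2 genes may not have been told apart. The gene cldn5b (chromosome 10, 45496611 to 45498257, plus strand) was at 1.59 and 2.62 FPKM over 2 near-identical transcripts, a difference of 0.49. Of 8 endothelial markers 7 were found, and their summed level was 3.12 FPKM in primary growth and 9.95 FPKM in pre-vitellogenic follicles, with none at 0 in both. The most abundant, the vascular growth factor receptor gene kdrl, was at 0.981 and 4.13 FPKM. The part of vessel cells in the cldn5a and cldn5b values was not tested.

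The gene cldn12 (chromosome 16, 46070673 to 46076458, minus strand) encodes a claudin that in mammals lacks the tail motif by which others bind junction scaffolds. Its summed level was 8.01 FPKM in primary growth and 14.6 FPKM in pre-vitellogenic follicles, a difference of 0.79. Its 2 transcripts differed: one was at 4.58 and 11.7 FPKM and the other at 3.43 and 2.87 FPKM. It was the longest claudin transcript compared, at 3492 bases by weight of FPKM, and with the length trend removed its difference turned to -0.27. It passed the 2-fold mark after scaling to the FPKM totals, at 1.03 with and 1.11 without mitochondrially encoded genes, and with its highest transcript alone, at 1.19. Genes of its length class had a median difference of 1.06. The gene lies within the span of adam22 on the opposite strand, which was at 0.151 and 0.171 FPKM.

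Scarce claudins with negative differences were cldnc, CLDN17 and cldn10a. The fish claudin gene cldnc (chromosome 21, 25134326 to 25136177, minus strand) was at 2.06 FPKM and 0.400 FPKM, a difference of -1.13 that was called lower. It lost that call with a pseudocount of 5 FPKM, at -0.39, and after rescaling that left out mitochondrially encoded genes, at -0.96. CLDN17 (chromosome 15, 41088756 to 41122391, plus strand; its gene ID now carries the symbol cldn8.2) was at 4.57 and 2.44 FPKM, a difference of -0.70. Of its 2 transcripts one was at 3.74 and 1.54 FPKM and the other at 0.834 and 0.897 FPKM. CLDN17 passed the 2-fold mark after centring, at -1.11, and after scaling to the 75th percentile, at -1.04. Claudin-10 forms ion-selective pores in mammals, and cldn10a (chromosome 6, 7216009 to 7222871, minus strand) was at 1.43 and 0.307 FPKM, a difference of -0.89. That last gene was 4.65-fold lower in FPKM, yet under the 2-fold mark on the scale with 1 FPKM added. It passed the mark with a pseudocount of 0.1 FPKM, at -1.91, after centring, at -1.31, and after scaling to the 75th percentile, at -1.08. Both cldnc and cldn10a entered the comparison through the primary growth library alone, the one in which they were high.

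**Figure D3:**
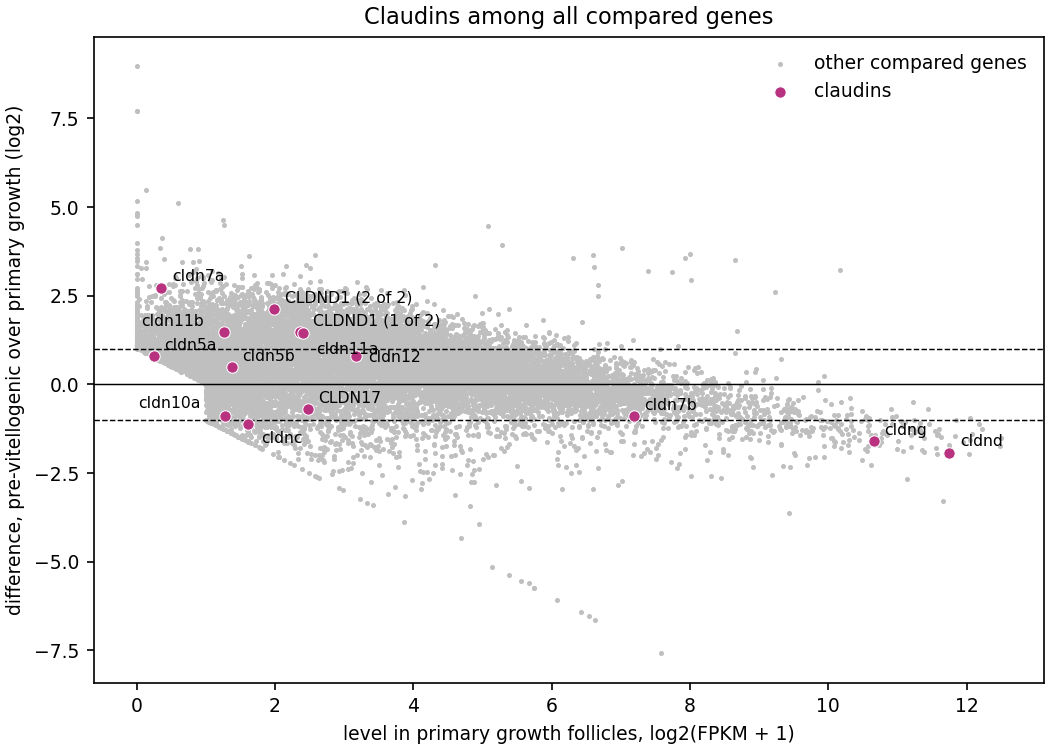
Difference between the stages (log2, pre-vitellogenic over primary growth, vertical axis) against the level in primary growth follicles, log2(FPKM + 1), for all 14480 compared gene names (grey) and the 14 claudins among them (coloured and named). Dashed lines mark the 2-fold rule; cldnd and cldng lie at the right, where 101 of 122 names at 1000 FPKM or more are below the lower line.

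Transcript length, which goes with the difference across all genes in these libraries, differed among the claudins. Compared claudins ran from 777 to 3492 bases, with a median of 1613. The compared genes were cut into 10 classes of length. The class of cldnd had a median difference of -0.17, and cldnd itself stood at -1.75 relative to its class. For cldng the value relative to its class was -1.60. The classes of cldn7a, cldn11a, cldn11b and the CLDND1 genes had medians of 0.15 to 0.45. Of these genes cldn11b stood closest to its class, 1.03 above it, and cldn7a furthest, at 2.73 in a class with a median of 0.33.

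Claudins sit in tandem groups in the zebrafish genome, and by the table's coordinates 10 of the 36 lay within 100 kb of another one. Of those 10, 2 reached 1 FPKM, against 12 of the other 26 and 14480 of all 29458 gene names. These counts used cldn names alone. The gene cldn10a, counted among the 26, lies within 100 kb of the IDs now named cldn10d and cldn10e. The 4 named claudins of a group on chromosome 21 (25119353 to 25158259) span 38.9 kb. There cldnd, at 3445 and 909 FPKM, neighbours cldnb at 0.615 and 0.290 FPKM, cldnc, and cldnh at 0.191 and 0.430 FPKM. The gene cldnb is used to mark the migrating lateral line of the zebrafish embryo. Between cldnb and cldnd lies a gene without a name in the table, whose ID now carries the symbol cldn29, and it was listed at 0 in both libraries. Beyond cldnd lies zgc:136892, now called cldn30, which was listed at 0 in the first library and had 1.33 FPKM in the second. Its end overlaps wbscr27 on the opposite strand, which was at 23.5 and 19.6 FPKM.

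**Figure D4:**
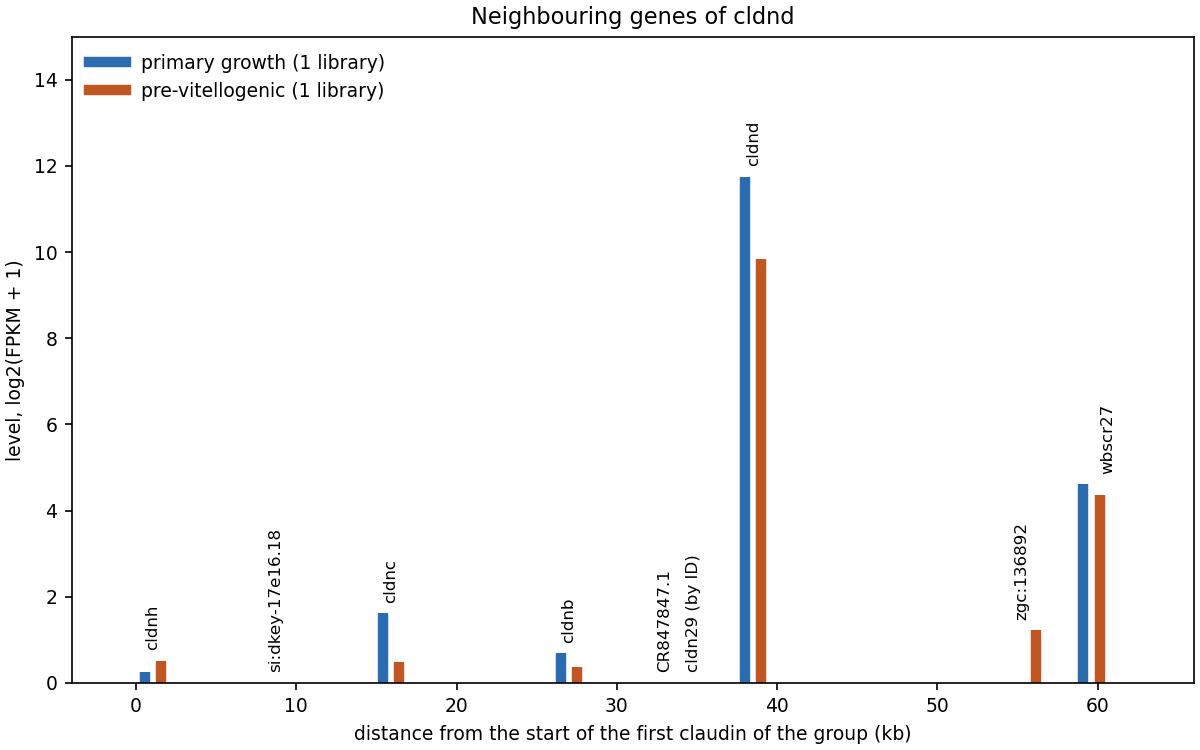
Level of the genes around cldnd, as log2(FPKM + 1), by their distance in kb from the start of cldnh, the first claudin of the group, with 1 bar per stage and 1 library per stage. Genes without a bar are listed at 0; cldnd stands at 3445 and 909 FPKM while cldnh, cldnc and cldnb stay at 2.06 FPKM or less.

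A second group of 4, on chromosome 15 (2622695 to 2648782), was nearly silent in both libraries. In it cldne was at 0.119 and 0.108 FPKM and cldna at 0.161 FPKM and then listed at 0. The others, cldnj, which acts in the zebrafish ear, and cldnf, were listed at 0 in both. On chromosome 9, cldn10b (0.0734 and 0.0613 FPKM) and cldn10l2 (listed at 0) lie next to each other inside the span of aaas on the opposite strand, which was at 20.8 and 23.2 FPKM. An annotation without introns was common in the family, with 11 of 36 claudins, 4 of them among the 14 compared, including cldnd. Among all compared genes 1.77% had none.

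Below 1 FPKM in both libraries but above 0 were 14 claudins, with highest values from 0.0734 to 0.984 FPKM. The gene nearest the level was cldn15b at 0.498 and 0.984 FPKM, and on the other side of it cldn5a stood at 1.06 FPKM. The end of cldn15b overlaps lsmd1 on the opposite strand by 66 bases, and lsmd1 was at 40.3 and 29.7 FPKM. After cldn15b and cldnb came cldnh, cldn15lb at 0.405 FPKM and then 0, and cldn1, the skin barrier claudin of the mouse, at 0 and then 0.344 FPKM. Of the 14, 8 were above 0 in both libraries, 3 were listed at 0 in primary growth (cldn1, cldni and cldnk, a gene of myelinating glia) and 3 in pre-vitellogenic follicles (cldn15a, cldn15lb and cldna). The rest were CLDN18, cldn15la, cldn2, cldne and cldn10b, all under 0.3 FPKM. The 8 names listed at 0 in both were CLDN20 (1 of 2), CLDN22, CLDN23 (1 of 2), CLDN23 (2 of 2), cldn10l2, cldn19, cldnf and cldnj. An exact 0 in this unit can be a failed estimate, although no claudin transcript was marked as failed.

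Some claudins may go by other names in the table. By current symbols of the gene IDs, 5 further genes are claudins, and of them only zgc:136892 reached 1 FPKM. The others were zgc:153311, now cldn33b, at 0.864 and 0.513 FPKM, and the IDs now named cldn10d, cldn10e and cldn29.

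Genes that work with claudins, and four-pass proteins listed as related to them, were read from 6 lists that hold no claudin, called partner lists here. Across them 83 genes were compared, of which 38 were higher and 1 was lower, against 29.1% and 6.53% of all compared genes. With a pseudocount of 5 FPKM 24 were higher (against 13.5%), and with the length trend removed 11 were higher (against 12.1%) and 3 lower (against 9.17%). The median length of the compared scaffold genes was 4428 bases, against 1706 bases for all compared genes.

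Among membrane partners in the junction, 3 of the 14 genes compared were higher, against 29.1% of all compared genes. None was lower, against 6.53%, and the median difference was 0.31. With the length trend removed none was higher, against 12.1%. The most abundant, the tight junction protein gene marveld3, was at 189.9 and 183.5 FPKM. Next in level were f11r, an adhesion gene, at 178.8 and 132.4 FPKM and the occludin genes oclna and oclnb at 119.1 and 119.4 FPKM and at 84.4 and 121.9 FPKM, all 3 named after their values were seen. A separate entry, MARVELD3, matched the same listed name as marveld3 and also counted among the 14. It was at 41.7 and 31.0 FPKM, a difference of -0.42, and was likewise named after its values were seen. The tricellulin genes marveld2b (3.49 and 14.2 FPKM) and marveld2a (5.40 and 13.0 FPKM), whose product seals the corners where cells meet, were higher, as was the adhesion gene jam3b (1.46 and 5.25 FPKM). The gene lsr, also of cell corners, was at 26.6 and 48.1 FPKM, a difference of 0.83.

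Genes of the junction scaffold list were higher in 11 of 17 cases and lower in none, against 29.1% and 6.53% of all compared genes. Their median difference was 1.52. The cingulin genes were among the furthest, with cgna at 1.13 and 11.5 FPKM, cgnb at 4.47 and 24.2 FPKM and the paralog cgnl1 at 5.81 and 33.8 FPKM. The angiomotin-like gene amotl2a was at 4.46 and 55.3 FPKM. With the length trend removed 5 of the 17 were higher (against 12.1%) and 1 lower (against 9.17%). The most abundant of the list, ybx1, which encodes a nucleic acid binding protein and no scaffold, was at 114.6 and 77.6 FPKM.

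Genes of the polarity complexes that place the junction were higher in 9 of 15 cases, against 29.1% of all compared genes. They were lower in none, against 6.53%. Their median difference was 1.20. They included pard6a (3.27 and 14.8 FPKM), pard3 (5.98 and 23.7 FPKM), dlg1l (4.18 and 16.9 FPKM) and llgl1 (12.8 and 42.6 FPKM). With the length trend removed 1 was higher, against 12.1%. The small GTPase gene cdc42, the most abundant of them, was at 27.8 and 52.6 FPKM.

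In the list for claudin trafficking and turnover 8 of 17 genes were higher, against 29.1% of all compared genes. In it 1 was lower, against 6.53%, and the median difference was 0.85. With the length trend removed 1 was higher (against 12.1%) and 1 lower (against 9.17%). After centring on the median shift 3 were higher, against 15.2%. The lower gene was epcam, at 1848 FPKM in primary growth and 682 FPKM in pre-vitellogenic follicles, a difference of -1.44. Its product is an adhesion protein that binds and stabilizes claudin-7 in mammals. Its level lies among the abundant genes of which 82.8% were lower. The kinase gene wnk1a (5.82 and 30.6 FPKM), the receptor gene ephb2b (0.904 and 6.70 FPKM) and the membrane protease gene st14b (1.64 and 6.88 FPKM) were higher. Of the 8 higher genes, ephb2b and WNK4 (3 of 4) entered the comparison through the later library alone. The latter, at 0.137 and 1.53 FPKM, was named after its values were seen.

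Among transcription factors known to act on claudin genes in vertebrates 6 of 14 were higher, against 29.1% of all compared genes. None was lower, against 6.53%, and the median difference was 0.82. With the length trend removed 3 were higher (against 12.1%) and 1 lower (against 9.17%). With a pseudocount of 5 FPKM 3 were higher, against 13.5%, and after centring 4, against 15.2%. Among the 6 were the repressor genes zeb2a (0.0254 and 3.76 FPKM), snai2 (3.34 and 13.3 FPKM) and snai1a (15.4 and 37.4 FPKM), and foxo1a (0.457 and 5.66 FPKM) and ovol1 (3.61 and 12.8 FPKM). All of the 6 but snai1a lay under 5 FPKM in primary growth, where 42.4% of 5900 compared genes were higher. Both zeb2a and foxo1a entered the comparison through the later library alone. Of the same families, snai3 (31.0 and 21.2 FPKM, difference -0.53) and zeb1a (0.786 and 1.92 FPKM, difference 0.71) were neither, both named after their values were seen. Of related four-pass proteins 1 of 6 was higher, against 29.1% of all compared genes. It was perp (1.69 and 7.16 FPKM), a gene of desmosomes in the mouse. Close to it in the list tmem47 was at 3.51 and 7.89 FPKM, a difference of 0.98, lhfpl2a at 3.98 and 7.33 FPKM, pmp22a at 6.16 and 5.12 FPKM, and pmp22b at 15.8 and 16.7 FPKM.

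**Figure D5:**
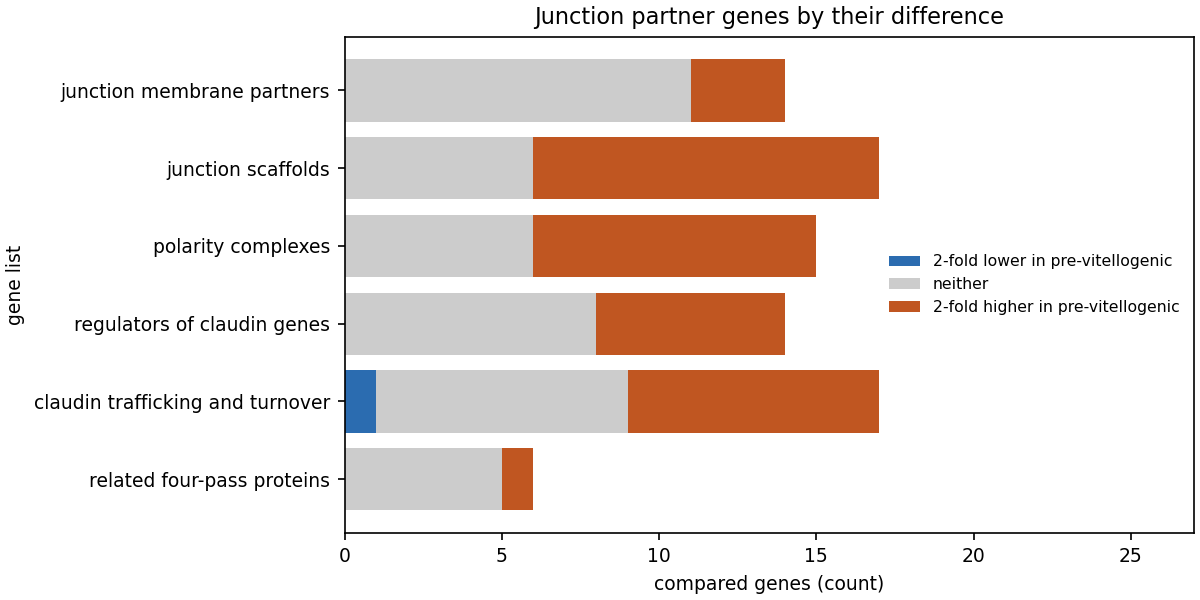
Number of compared genes in each of the 6 partner lists that were 2-fold higher, 2-fold lower or neither in pre-vitellogenic over primary growth follicles. The lists hold genes that work with claudins and four-pass proteins listed as related to them. The lower gene is epcam. Scaffolds (11 of 17) and polarity genes (9 of 15) hold the most higher genes, against 29.1% of all compared genes. With the length trend removed, 5 of 17 scaffold and 1 of 15 polarity genes are higher, against 12.1%.

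Markers of the cells a follicle sample can hold were read beside the claudins, and their part in the claudin values was not tested. Of 8 compared granulosa and theca markers 7 were higher, against 29.1% of all compared genes and 42.4% of those under 5 FPKM in primary growth, where all 7 lay, among them inha (1.25 and 7.31 FPKM) and nr5a1a (listed at 0 and 2.601 FPKM). Of the 7, amh, gsdf, fshr, FOXL2, nr5a1a and wt1a entered the comparison through the later library alone. For fshr and nr5a1a, listed at 0 in primary growth, reaching 1 FPKM in the later library by itself makes the call, so the count carries little weight. The summed level of the granulosa and theca markers, 57.3 and 72.1 FPKM over 11 names, was mostly the steroid enzyme gene cyp17a1 (54.1 and 48.3 FPKM), and none was at 0 in both. Oocyte markers summed to 2711 and 1271 FPKM over 8 names, with zp3b at 1260 and 426.6 FPKM and zar1 at 1086 and 356.6 FPKM. These 2 of 7 compared markers were the lower ones, against 6.53% of all compared genes. Both lie among the names at 1000 FPKM or more in primary growth, of which 82.8% were lower. The other 6 names summed to 365.6 and 487.9 FPKM, among them the 1 higher marker, vasa (79.4 and 173.7 FPKM), named after its values were seen. Epithelial markers summed to 2003 and 842.0 FPKM over 8 names, of which epcam held 92.3% and 81.0%. The other 7 names summed to 154.6 and 159.9 FPKM, mostly cdh1 (120.7 and 101.5 FPKM), named after its values were seen, and krt8 was at 17.0 and 36.3 FPKM. Erythrocyte markers summed to 65.9 and 61.6 FPKM over 5 names, with hbaa1 at 55.1 and 51.6 FPKM and ba1 at 10.4 and 8.31 FPKM. Leukocyte markers summed to 5.69 and 3.52 FPKM over 6 names, with lyz at 2.08 and 0.377 FPKM and coro1a at 2.28 and 0.748 FPKM. Gut markers summed to 5.17 and 7.04 FPKM over 6 names, with vil1 at 3.60 and 6.91 FPKM, fabp6 at 1.09 FPKM and then listed at 0, and apoa4 and cdx1b at 0 in both.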

How the data were processed

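The mRNA table holds FPKM per transcript with lower and upper bounds and a status, as deposited by the authors. Which confidence level the bounds stand for is not stated there. Per the submitters' processing notes, the tools include Cufflinks 2.2.1 and TopHat2 2.0.11, on build Zv9, with no roles given. The PG and PV columns were assigned to stages through the cell type label, since every title reads PG. The small RNA table was not used here.

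FPKM of rows with the same name were summed over 56711 rows, and length was weighted by FPKM. Rows without a name (1183) were kept by gene ID. The pseudocount was 1 FPKM. With 1 library per stage no test was made. Python 3.11.15, pandas 2.3.3 and numpy 2.4.6 were used.

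Members and lists were chosen with earlier results of these data known. Named were every claudin at 1 FPKM or more, the 5 highest below that, up to 4 genes per partner list by difference and the most abundant, and up to 2 per marker list. Lists were matched by name, then current symbol, then RefSeq synonym (assembly GRCz12tu). Current symbols were found for 28 of 36 claudin IDs. Claudin proteins were not analysed here. Alternatives were other pseudocounts, filters, scalings, removal of a length trend, single transcripts and other member sets.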

Additional observations from a re-analysis of the deposited data

How the results depend on the processing

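With 1 library per stage no library could be left out, and depth, which is unknown, limits the scarce claudins most. No paired analysis was possible because each stage has a single mRNA library. The summed claudin level kept its direction and stayed past the 2-fold mark in all 12 alternatives, from -2.16 to -1.37. Several of these could hardly move it. Taking off the filter sums the same genes, and cldnd and cldng hold most of the sum. Pseudocounts and scarce genes added or left out therefore change it little. The sum outside the 3 most abundant genes stayed above 0 but came under the mark after centring (0.82), scaling to the 75th percentile (0.79), removal of the length trend (0.78) and without claudin domain genes (0.91). Claudins called higher numbered 3 with a pseudocount of 5 FPKM (against 13.5% of all compared genes) and 3 without claudin domain genes (29.1%), and those called lower 6 after centring (13.2%) and 6 after scaling to the 75th percentile (12.4%). The median difference was 0 with no filter, 1.44 among genes at 5 FPKM or more, -0.057 with the length trend removed and -0.10 without claudin domain genes. Partner genes called higher numbered 24 with a pseudocount of 5 FPKM (13.5%), 25 after centring (15.2%) and 11 with the length trend removed (12.1%), and those called lower 2 after scaling to the 75th percentile (12.4%) and 3 with the length trend removed (9.17%). The difference of cldn12 ran from -0.27 with the length trend removed to 1.19 with its highest transcript alone. Beyond the alternatives' own construction, the cause was not tested. Of the values of single claudins and single lists, 246 kept their direction and call, or moved by no more than 1.5 times. Another 12 passed the mark under an alternative alone, 4 came under it and 18 counts moved further. The remaining 1, the difference of cldn12 with the length trend removed, reversed its direction. Part of the 246 were fixed in advance. Filters and changed member sets cannot alter the difference of a single gene, nor can the transcript choice where a gene has 1 transcript. Without the filter, list counts could not move, since a gene under 1 FPKM in both libraries cannot reach 2-fold with 1 FPKM added.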
